A study of Homo sapiens with 6 samples.

Results

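Axon guidance and neural adhesion genes were followed in HGC-27 cells, an established human gastric cancer cell line, with RNA-seq of GC0643 overexpression and vector control cells. Protein-coding genes of the semaphorin, plexin, neuropilin, ephrin, Eph receptor, slit, robo, netrin, contactin and LRRN (leucine-rich repeat neuronal) families were taken by symbol. This gave 73 of the 58825 genes in the table, and 64 of the 73 had enough reads to be tested among 19528 genes. Of the netrins only NTN1, NTN4 and NTN5 were taken, and NTN3, NTNG1 and NTNG2 were counted with other genes of the pathway. The GC0643 overexpression group held 3 libraries and the vector control group 3 libraries. Cells of both groups grew in RPMI-1640 medium with fetal bovine serum, and stable expression was obtained by retroviral infection with puromycin selection. Whether a line was a clone or a pool, and whether the libraries of a group came from separate cultures, is not stated for these libraries, although the study's methods speak of independent replications of in vitro experiments in general, so the p-values measure only the spread between these libraries. GC0643 itself was not analysed here, and the group labels were therefore not checked against its level.

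Guidance cues steer growing axons and migrating cells through paired ligands and receptors. Semaphorins bind plexins, with neuropilins as coreceptors for secreted class 3 semaphorins. Ephrins, tethered to the membrane, bind Eph receptor tyrosine kinases on neighbouring cells and can signal into both cells. Slits bind robos and netrins bind DCC and UNC5 receptors, while contactins and LRRN proteins are adhesion molecules of the immunoglobulin and leucine-rich repeat type. The same families are used outside the nervous system, in blood vessels and in gut epithelium, where EphB receptors help to keep cells in position along the intestinal crypt.

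No member passed an adjusted p of 0.05 in either direction, and none of all genes tested did (0% of 19528, edgeR's quasi-likelihood test with Benjamini-Hochberg adjustment). DESeq2 and limma voom also called 0 members in each direction, and edgeR's likelihood ratio test called 2 higher, CNTN1 and LRRN3 (0.0666% of all genes). At an unadjusted p under 0.05, 11 members were higher in the GC0643 overexpression group (17.2% of 64, against 13.1% of all genes tested) and 2 were lower (3.12%, against 5.26%). The 11 were the adhesion genes CNTN1 and LRRN3, the semaphorins SEMA3A, SEMA3C, SEMA3D and SEMA5A, and the receptors EPHA3, EPHA4, EPHA5, ROBO1 and ROBO2. The 2 lower genes were the receptors ROBO3 and EPHA2. With a fold change over 1.5 as well, CNTN1 and LRRN3 were higher (3.12% of 64, against 1.6% of all genes) and 0 members were lower (against 0.871%). The median log2 fold change, GC0643 overexpression minus vector control, was −0.06 over the 64 genes, with 26 positive values (40.6%, against 51.9% of all genes). These counts depended on single libraries: with GC0643 overexpression replicate 1 left out there were 2 higher members in place of 11 (6.5% of all genes), and leaving out vector control replicate 1 also gave 2 (4.14%). The 2 lower members became 0 without GC0643 overexpression replicate 2 (4.5% of all genes), GC0643 overexpression replicate 3 (1.84%) or vector control replicate 3 (2.66%). Without vector control replicate 1 there was 1 (2.76%). Past the fold change there were 7 higher members in place of 2 on leaving out GC0643 overexpression replicate 2 (2.51% of all genes), 4 on leaving out its replicate 3 (1.76%) and 4 on leaving out vector control replicate 3 (1.42%). Leaving out GC0643 overexpression replicate 1 gave 1 higher (1.54%) and 1 lower (1.43%). Without vector control replicate 2, 15 of 65 tested members were higher at the unadjusted p (22.8% of all genes) and 10 lower (14.2%), with 7 higher past the fold change (8.71% of all genes) and 1 lower past it (2%). In that setting 8 members passed the adjusted p on the higher side (14.7% of all genes did) and 3 on the lower side (4.36%). Dropping vector control replicate 3 left 1 past the adjusted p on the higher side (0.101% of all genes).

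Levels spanned several orders of magnitude, as the plot of levels per length shows. In CPM per kilobase of merged exons, 12 members stood at 10 or more in the vector control group, 38 between 1 and 10, 13 between 0.1 and 1 and 10 under 0.1. The highest was PLXNB2, a plexin that binds class 4 semaphorins, with 44.2 ± 2.15 CPM per kilobase in the GC0643 overexpression group and 52.7 ± 8.71 in the vector control group (SD, n = 3 each). EPHB4, the receptor of ephrin-B2, followed with 23.5 ± 1.38 CPM per kilobase in GC0643 overexpression and 26.2 ± 2.67 in vector control. The ligand genes were led by EFNA4, an ephrin with a glycolipid anchor, at 21.6 ± 1.47 CPM per kilobase in GC0643 overexpression and 23.0 ± 1.20 in vector control. Summed over their members, ephrins reached 90.1 CPM per kilobase in GC0643 overexpression and 95.0 in vector control, and Eph receptors 51.5 in GC0643 overexpression and 55.7 in vector control. Contactins summed to 9.16 CPM per kilobase in GC0643 overexpression and 5.87 in vector control, most of it from CNTN1.

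**Figure D1:**
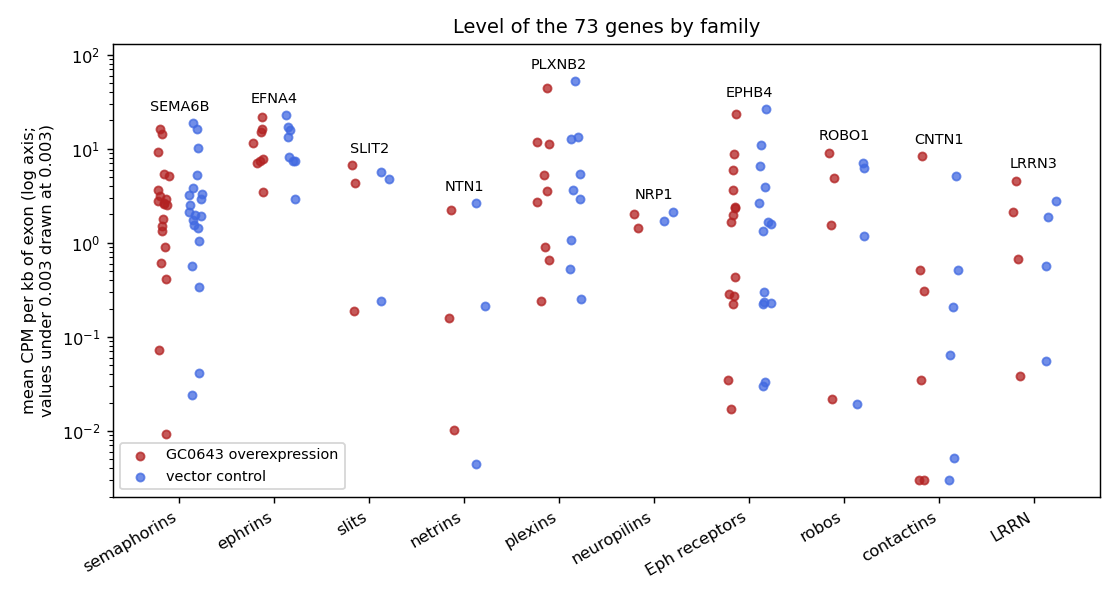
Mean level of each of the 73 genes by family, in CPM per kilobase of merged exons on a log axis, with a point for each gene in each group. PLXNB2 is the highest member, at 44.2 CPM per kilobase in GC0643 overexpression and 52.7 in vector control, and the lowest points are genes at or near 0.

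The 9 untested members were CNTN3, CNTN6, EPHA10, EPHB1, LRRN4, NTN5, ROBO4, SEMA4A and SEMA5B. CNTN6 had 0 counts in all 6 libraries, which allows up to 3 counts in each, or 0.125 to 0.148 CPM, and CNTN3 had 2 counts in vector control replicate 3 and 0 in the other libraries. ROBO4, the robo of endothelial cells, had 3, 1 and 5 counts in GC0643 overexpression libraries and 3, 4 and 1 in vector control libraries. Of the 64 tested genes, 50 had at least 100 counts in every library.

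The start regions of 4 genes are shown because these genes had an unadjusted p under 0.05 in opposite directions. RefSeq windows on GRCh38.p14, running 250 bases before to 50 bases after the start, were available within 500 bases of the canonical start for 61 members. LRRN3 and EPHA5 were higher, with the smallest unadjusted p of the higher members that had a window, and ROBO3 and EPHA2 were lower. CNTN1 is not shown, since its nearest window lay 135745 bases from the canonical start. Capitals mark each CG dinucleotide.
LRRN3 (chr7:111090877-111091176, strand +): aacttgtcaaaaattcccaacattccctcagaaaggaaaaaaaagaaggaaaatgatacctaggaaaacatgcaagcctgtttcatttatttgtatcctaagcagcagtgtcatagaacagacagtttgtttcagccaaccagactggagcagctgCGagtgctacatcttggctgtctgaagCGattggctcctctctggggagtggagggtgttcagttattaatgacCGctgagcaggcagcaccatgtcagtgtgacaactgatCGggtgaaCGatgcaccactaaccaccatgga
EPHA5 (chr4:65670440-65670739, strand -): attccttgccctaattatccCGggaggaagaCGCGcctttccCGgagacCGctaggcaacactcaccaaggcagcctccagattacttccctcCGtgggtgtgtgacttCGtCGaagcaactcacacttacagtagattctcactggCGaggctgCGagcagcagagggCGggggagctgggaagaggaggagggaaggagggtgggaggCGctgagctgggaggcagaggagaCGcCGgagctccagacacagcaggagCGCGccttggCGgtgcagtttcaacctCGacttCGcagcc
ROBO3 (chr11:124865182-124865481, strand +): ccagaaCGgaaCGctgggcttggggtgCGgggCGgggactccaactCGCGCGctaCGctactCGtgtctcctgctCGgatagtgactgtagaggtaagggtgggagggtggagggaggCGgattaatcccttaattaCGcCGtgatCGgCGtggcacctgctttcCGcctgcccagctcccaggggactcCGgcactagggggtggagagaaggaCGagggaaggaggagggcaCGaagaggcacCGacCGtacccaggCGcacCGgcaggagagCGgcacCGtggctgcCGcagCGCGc
EPHA2 (chr1:16156020-16156319, strand -): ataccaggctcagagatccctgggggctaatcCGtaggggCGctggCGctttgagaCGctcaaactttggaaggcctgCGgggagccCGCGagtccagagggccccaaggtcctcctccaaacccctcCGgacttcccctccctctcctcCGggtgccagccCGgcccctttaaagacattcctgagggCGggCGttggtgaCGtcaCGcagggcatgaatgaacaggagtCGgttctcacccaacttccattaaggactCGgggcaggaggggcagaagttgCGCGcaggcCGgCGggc
The LRRN3 window held 5 CG dinucleotides, the fewest among the 61, and had 46.0% G or C. EPHA5 had 19 in its window, ROBO3 28 and EPHA2 20. The median was 28 CG dinucleotides in the members' windows, against 22 in 17748 windows of all genes, of which 97.9% held at least 1. The motif GGGCGG, searched on both strands and itself holding a CG, was in 83.6% of the members' windows and 58.1% of all windows. Members with transcripts under 45% GC, where most higher genes lay, had a median of 30 CG dinucleotides in 16 windows, and those over 55% GC had 27 in 27 windows. The motif was in 62.5% of those 16 windows and in 92.6% of those 27, a difference that was not tested.

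Among ligands, 31 of 34 were tested, of which 4 were higher (12.9%, against 13.1% of all genes) and 0 lower (against 5.26%) by the unadjusted p, with a median log2 fold change of −0.07. All 4 were semaphorins. SEMA3D, a secreted class 3 semaphorin, had 50.5, 34.7 and 47.6 CPM in GC0643 overexpression libraries, against 27.7, 37.1 and 30.2 CPM in vector control libraries, a log2 fold change of 0.48 (SE 0.16, unadjusted p = 0.0098, edgeR's adjusted p = 0.26). GC0643 overexpression replicate 2 lay below vector control replicate 2, so the groups overlapped. SEMA3A, the semaphorin first known for collapsing growth cones, had 29.6, 21.4 and 26.0 CPM in GC0643 overexpression, against 17.4, 22.2 and 19.3 CPM in vector control (log2 fold change 0.39, SE 0.16). SEMA3C, a class 3 semaphorin used in heart outflow tract development, had 21.9, 11.2 and 13.1 CPM in GC0643 overexpression and 8.52, 11.9 and 11.6 CPM in vector control (log2 fold change 0.53, SE 0.23). Replicate 1 of GC0643 overexpression carried much of that difference: the SEMA3C log2 fold change was 0.19 without it. The transmembrane SEMA5A, on chromosome 5 (GRCh38, 9035033 to 9546075), had 40.8, 28.3 and 28.6 CPM in GC0643 overexpression, against 21.8, 24.3 and 24.5 CPM in vector control. Its groups did not overlap. The log2 fold change of 0.47 (SE 0.16) became 0.27 once GC0643 overexpression replicate 1 was left out.

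Class 3 semaphorins split by chromosome, a grouping made after their values were seen. SEMA3A, SEMA3C, SEMA3D and SEMA3E on chromosome 7 all had positive log2 fold changes, 0.33 to 0.53, and transcripts of 36.7% to 38.0% GC. SEMA3B, SEMA3F and SEMA3G on chromosome 3 had values of −0.17 to −0.07, and transcripts of 58.6% to 63.9% GC. After a loess correction of each library for transcript GC content, the chromosome 7 genes had 0.01 to 0.18 and the chromosome 3 genes 0.03 to 0.15. The difference between the chromosomes was not tested. SEMA3E, the ligand of PLXND1, was the one of these chromosome 7 genes that missed an unadjusted p of 0.05, with 33.7, 26.5 and 32.1 CPM in GC0643 overexpression, against 22.2, 29.4 and 22.0 CPM in vector control. Class 4 semaphorins, which are transmembrane, had 1 positive and 4 negative log2 fold changes in 5 tested of 6, between −0.16 and 0.02. All 5 were positive after the GC correction. Classes 5 to 7 had 3 positive and 3 negative values in 6 tested of 7, between −0.21 and 0.47. SEMA6B, the semaphorin with the highest level per length and a ligand of A plexins, had 89.6, 73.8 and 64.0 CPM in GC0643 overexpression and 78.6, 72.8 and 111 CPM in vector control. The difference on the log2 scale was −0.21 (SE 0.17), and the groups overlapped. Vector control replicate 3 was the highest library, and the difference without it was −0.0043.

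Ephrin genes showed 2 positive and 6 negative log2 fold changes of 8, between −0.20 and 0.27, and none was at an unadjusted p under 0.05. After the GC correction 6 of the 8 were positive. EFNB3, a transmembrane ephrin of the midline of the nervous system, had 40.7, 36.5 and 33.3 CPM in GC0643 overexpression and 40.6, 36.2 and 50.4 CPM in vector control (log2 fold change −0.20, or −0.069 without vector control replicate 3). EFNA4 had 25.2, 28.9 and 27.4 CPM in GC0643 overexpression and 30.6, 28.4 and 27.7 CPM in vector control (log2 fold change −0.09). Both pairs of groups overlapped. EFNA5, an ephrin-A named after its values were seen, averaged 40.6 ± 1.15 CPM in GC0643 overexpression and 42.5 ± 1.57 CPM in vector control (SD, n = 3 each), overlapping groups with a log2 fold change of −0.07 as counted. EFNA3 shares 43.9% of its exon bases with the readthrough gene EFNA4-EFNA3, and EFNA4 shares 15.0%, and how reads in shared bases were assigned is not stated for these libraries. Shared exon bases also covered 36.4% of EFNB2, 28.0% of SEMA4G and 20.4% of PLXNB3.

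Of the slits, repellents of axons at the midline, SLIT2 had 76.1, 68.6 and 79.3 CPM in GC0643 overexpression, against 60.6, 67.7 and 61.0 CPM in vector control. The 2 groups did not overlap, with the lowest GC0643 overexpression library just above the highest vector control library, and the log2 fold change was 0.24 (SE 0.12, unadjusted p = 0.068). The other two slits had negative values, down to −0.36. NTN1, netrin 1, a secreted attractant and repellent, had 14.2, 14.8 and 14.1 CPM in GC0643 overexpression and 16.9, 13.4 and 20.6 CPM in vector control, with overlapping groups and a log2 fold change of −0.24 (SE 0.17). It was −0.084 without vector control replicate 3 and −0.39 with vector control replicate 2 dropped.

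Among receptors, 26 of 29 were tested, of which 5 were higher (19.2%, against 13.1% of all genes) and 2 were lower (7.69%, against 5.26%) by the unadjusted p, with a median log2 fold change of −0.07. EPHA3, EPHA4, EPHA5, EPHA6 and EPHA7, grouped after their values were seen, all had positive values, 0.26 to 0.55. EPHA2, EPHA1 and 3 of 4 tested EphB receptors had negative values, and EPHA8 stood at 0.0057. After the GC correction EPHA6 and EPHA7 were negative and all 4 EphB receptors positive. EPHA5, a receptor of ephrin-A ligands best known from the brain, had 23.2, 16.6 and 17.9 CPM in GC0643 overexpression libraries, against 10.3, 15.5 and 13.6 CPM in vector control libraries. The groups did not overlap, and the log2 fold change was 0.55 (SE 0.18, unadjusted p = 0.0088, edgeR's adjusted p = 0.26). EPHA3, another ephrin-A receptor, had 19.9, 12.0 and 14.6 CPM in GC0643 overexpression and 8.52, 13.1 and 10.8 CPM in vector control (log2 fold change 0.52). Here GC0643 overexpression replicate 2 was lower than vector control replicate 2, and leaving out GC0643 overexpression replicate 1 gave a log2 fold change of 0.30. EPHA4, named after its values were seen because it completes the 11, was low, with 3.50, 3.26 and 3.01 CPM in GC0643 overexpression and 2.32, 1.89 and 2.62 CPM in vector control, groups that did not overlap. EPHA6 and EPHA7, also named after their values were seen, had log2 fold changes of 0.26 for EPHA6 (SE 0.19, unadjusted p = 0.19) and 0.29 for EPHA7 (SE 0.25, unadjusted p = 0.26).

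EPHA2, an epithelial Eph receptor on chromosome 1 (GRCh38, 16124337 to 16156069), had 34.2, 38.1 and 36.7 CPM in GC0643 overexpression, against 45.1, 38.8 and 50.7 CPM in vector control. All 3 GC0643 overexpression libraries were below all 3 vector control libraries, and the log2 fold change was −0.31 (SE 0.14, unadjusted p = 0.042). EPHB4, the Eph receptor with the highest level per length, had 149, 161 and 144 CPM in GC0643 overexpression and 172, 150.0 and 184 CPM in vector control, with overlapping groups and a log2 fold change of −0.16 (SE 0.12).

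The robos, receptors of slits, had members on both sides at an unadjusted p under 0.05. ROBO1 had 115, 83.1 and 104 CPM in GC0643 overexpression libraries, against 72.0, 92.8 and 70.9 CPM in vector control libraries (log2 fold change 0.36, SE 0.15, unadjusted p = 0.029). Vector control replicate 2 lay above GC0643 overexpression replicate 2. ROBO2 had 28.7, 24.1 and 24.7 CPM in GC0643 overexpression and 18.0, 19.9 and 21.7 CPM in vector control, with no overlap (log2 fold change 0.38, SE 0.14). ROBO3, the robo that lets commissural axons cross the midline, had 37.0, 33.5 and 30.7 CPM in GC0643 overexpression, against 39.8, 37.4 and 54.9 CPM in vector control. Its groups did not overlap, the highest vector control library was replicate 3, and the log2 fold change of −0.39 (SE 0.16) was −0.20 without that library.

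**Figure D2:**
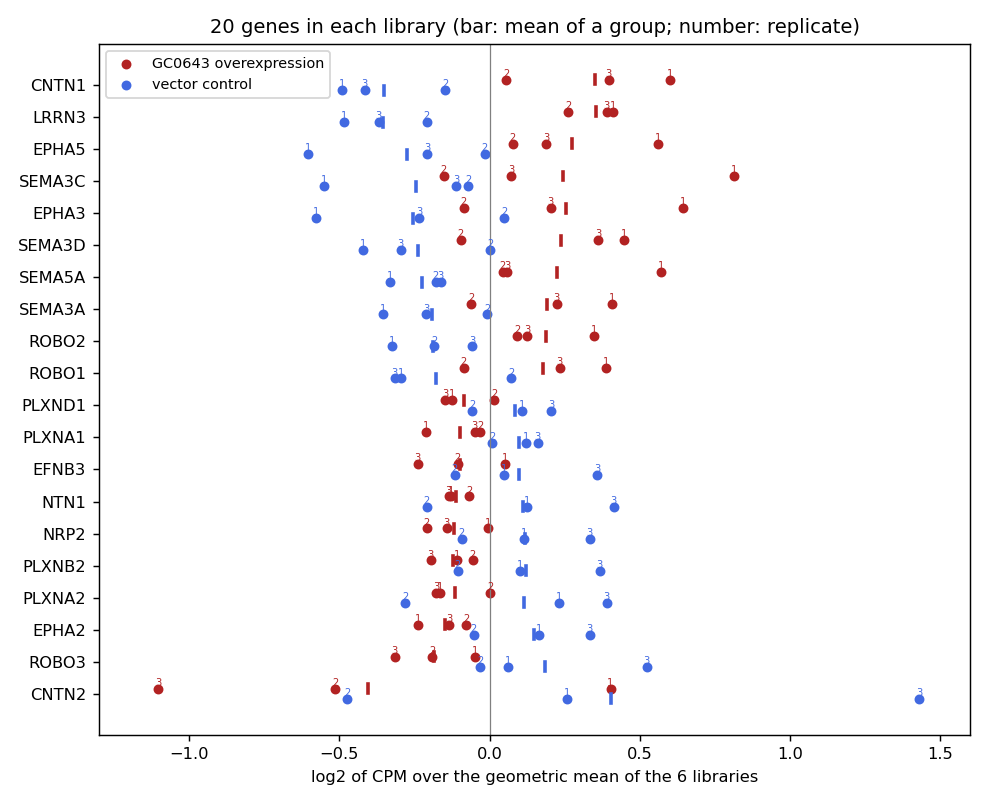
Values of 20 genes, the 10 with the smallest unadjusted p on each side, in every library, as log2 of CPM over the geometric mean of the 6 libraries. CNTN1 and LRRN3 have all 3 GC0643 overexpression libraries above all 3 vector control libraries, with log2 fold changes of 0.71 each, and vector control replicate 2 lies nearest to the GC0643 overexpression libraries for many genes.

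Plexins, the receptors of semaphorins, had 1 positive and 8 negative log2 fold changes (51.9% of all genes were positive). None was at an unadjusted p under 0.05. After the GC correction 6 of the 9 plexins were positive (49.9% of all genes). PLXNB2 had 324, 336 and 305 CPM in GC0643 overexpression and 375, 325 and 450.4 CPM in vector control (log2 fold change −0.25, SE 0.13, unadjusted p = 0.069). PLXNA1, a class A plexin that pairs with neuropilins, had 117, 132 and 130.2 CPM in GC0643 overexpression and 147, 136 and 151 CPM in vector control (log2 fold change −0.19). PLXNA1 groups did not overlap, and PLXNB2 groups did. PLXND1, the plexin of SEMA3E, had 110.3, 121 and 109 CPM in GC0643 overexpression and 129.7, 116 and 139 CPM in vector control (log2 fold change −0.17). PLXNA2 had 12.1, 13.6 and 12.0 CPM in GC0643 overexpression and 16.0, 11.2 and 17.8 CPM in vector control (log2 fold change −0.25). Both of these overlapped between the groups. The coreceptor NRP2 had 21.7, 18.8 and 19.7 CPM in GC0643 overexpression and 23.6, 20.4 and 27.4 CPM in vector control (log2 fold change −0.25). NRP1, the coreceptor of SEMA3A, had 23.5, 22.1 and 24.6 CPM in GC0643 overexpression and 20.1, 25.7 and 28.4 CPM in vector control (log2 fold change −0.08). The groups overlapped for both coreceptors. Without vector control replicate 3 the log2 fold change was −0.13 for PLXNB2, −0.11 for PLXNA2, −0.14 for NRP2 and 0.02 for NRP1. PLXNA4, named after its values were seen as the only plexin with a positive value, had 10.6, 10.9 and 10.6 CPM in GC0643 overexpression, against 8.47, 8.25 and 9.40 CPM in vector control, with no overlap, and a log2 fold change of 0.29 (SE 0.16, unadjusted p = 0.081).

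The adhesion genes had a median of 0.27 over 7 tested of 10, and 2 of them, CNTN1 and LRRN3, were higher by the unadjusted p (28.6%, against 13.1% of all genes) while 0 were lower (against 5.26%). CNTN1, a contactin held on the membrane by a glycolipid anchor and a partner of adhesion complexes at the axon, lies on chromosome 12 (GRCh38, 40692439 to 41072415). It had 74.7, 51.2 and 64.8 CPM in GC0643 overexpression libraries, against 35.1, 44.4 and 36.9 CPM in vector control libraries. The means were 63.5 ± 11.8 CPM in GC0643 overexpression and 38.8 ± 4.97 CPM in vector control (SD, n = 3 each), the groups did not overlap, and the log2 fold change was 0.71 (SE 0.16, unadjusted p = 0.00035, edgeR's adjusted p = 0.26). LRRN3, a transmembrane leucine-rich repeat protein, lies on chromosome 7 (GRCh38, 111091006 to 111125454). It had 18.4, 16.6 and 18.1 CPM in GC0643 overexpression libraries, against 9.90, 12.0 and 10.7 CPM in vector control libraries, and its groups did not overlap. Its log2 fold change was 0.71 (SE 0.15, unadjusted p = 0.0003, edgeR's adjusted p = 0.26). Leaving out each library in turn gave log2 fold changes of 0.58 to 0.83 for CNTN1 and 0.63 to 0.78 for LRRN3. CNTN2, a contactin of myelinated axons, was near the floor, with 0.980, 0.519 and 0.345 CPM in GC0643 overexpression and 0.887, 0.534 and 2.00 CPM in vector control, and its log2 fold change of −0.90 (SE 0.50) was −1.40 without GC0643 overexpression replicate 1 and −0.21 with vector control replicate 3 dropped. LRRN2, named after its values were seen, had 3.83, 4.72 and 3.01 CPM in GC0643 overexpression and 3.25, 2.77 and 3.53 CPM in vector control, with a log2 fold change of 0.27 (SE 0.23) and overlapping groups.

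Groups did not overlap for 9 members on the higher side (14.1% of 64, against 11.8% of all genes tested) and 3 on the lower side (4.69%, against 10.5%). Fold changes followed the GC content of the canonical transcript: across genes, which are not independent replicates, Spearman's correlation was −0.68 over the 64 members and −0.67 over 19401 genes tested. Of 19 members under 45% GC, 16 had positive values, as had 5884 of 6683 genes of that GC content. At an unadjusted p under 0.05, 10 of these members were higher (52.6%), against 32.6% of the 6683 genes. Of 32 members over 55% GC, 4 had positive values, as had 882 of 6248 genes of that GC content. By the unadjusted p 2 of these members were lower (6.25%), against 13.6% of the 6248 genes. Fold changes were also related to the length of the gene on the chromosome, with a Spearman correlation of 0.45 over the members and 0.27 over all genes tested, and −0.05 over the members after the GC correction. The GC pattern also lay between libraries of a group: the median deviation of the 19 low-GC members from their mean over all libraries was 0.39, −0.09 and 0.20 on the log2 scale in GC0643 overexpression libraries and −0.32, −0.01 and −0.21 in vector control libraries. By this median vector control replicate 2 lay above GC0643 overexpression replicate 2.

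**Figure D3:**
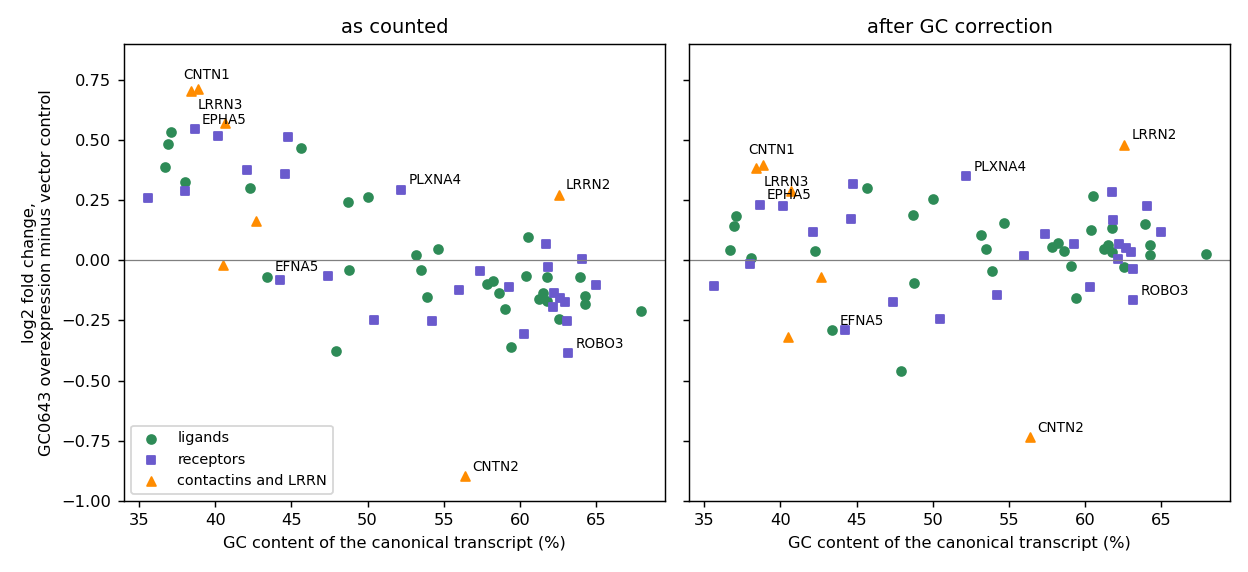
Log2 fold change, GC0643 overexpression minus vector control, of the 64 tested genes against GC content of the canonical transcript, as counted (left) and after a GC correction in each library (right). Spearman's correlation is −0.68 on the left and −0.03 on the right, and CNTN1 stands at 0.71 on the left and 0.40 on the right.

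After the correction of each library for GC content, Spearman's correlation was −0.03 over the members, and 5 were higher at an unadjusted p under 0.05 (7.81% of 64, against 2.87% of all genes) and 1 lower (1.56%, against 3.24%), with none past an adjusted p by edgeR. CNTN1 had a log2 fold change of 0.40 (unadjusted p = 0.0038), LRRN3 0.39 (unadjusted p = 0.0057) and SEMA5A 0.30 (unadjusted p = 0.047). The others, named after their values were seen, were PLXNA4, at 0.35, LRRN2, at 0.48, and on the lower side EFNA5, at −0.29. No member passed the fold change of 1.5 with an unadjusted p under 0.05 after the correction. The 8 other genes of the 11 had corrected values between 0.04 (SEMA3A) and 0.32 (EPHA4), ROBO3 had −0.17 and EPHA2 −0.11. EPHA6 had −0.11, EPHA7 −0.02 and PLXNA1 0.01, each with the opposite sign to its uncorrected value. With vector control replicate 2 also left out, a choice made after the data were seen, 4 of 65 members were higher (6.82% of all genes) and 2 lower (5.31%) at the unadjusted p, and 0 were past the fold change in either direction (1.4% of all genes on the higher side and 1.79% on the lower side). Positive values of the corrected fit on all 6 libraries were found for 45 of 64 members (70.3%, against 49.9% of all genes).

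**Figure D4:**
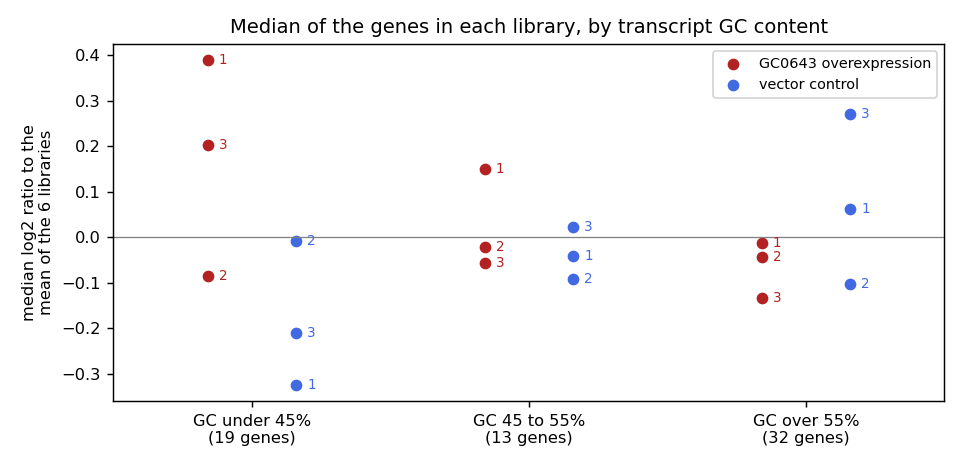
Median deviation of members from their mean over the 6 libraries, on the log2 scale, in each library and by GC content of the transcript. Members under 45% GC have medians of 0.39, −0.09 and 0.20 in GC0643 overexpression libraries and −0.32, −0.01 and −0.21 in vector control libraries.

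Other genes of the pathway, from 3 lists, gave 0 past an adjusted p by edgeR's quasi-likelihood test on all 6 libraries. Of 20 tested receptors and ligands outside the members, 1 was higher by the unadjusted p (5%, against 13.1% of all genes). On the lower side there were 3 (15%, against 5.26%), and the median log2 fold change was 0.02. RYK, a Wnt receptor, had 0.48, the netrin receptor UNC5B −0.53 and FLRT1, a leucine-rich repeat adhesion protein, −0.44. After the GC correction RYK had 0.32, UNC5B −0.32 and FLRT1 −0.23, and without vector control replicate 3 UNC5B had −0.22 and FLRT1 −0.16. Of 48 tested intracellular effectors 8 were higher (16.7%, against 13.1% of all genes) and 2 lower (4.17%, against 5.26%). VAV3 had 25.9, 20.9 and 25.9 CPM in GC0643 overexpression, against 11.6, 15.6 and 12.7 CPM in vector control, and a log2 fold change of 0.87 (0.66 after the GC correction). VAV3 passed the adjusted p with edgeR's likelihood ratio test (adjusted p = 0.0034), with DESeq2 (adjusted p = 0.012), with no filter on low counts (adjusted p = 0.00034) and on leaving out vector control replicate 2 (adjusted p = 0.010) or 3 (adjusted p = 0.0079). UNC5B (adjusted p = 0.022) and ALCAM (adjusted p = 0.043) passed it with no filter. Without vector control replicate 2 the 9 genes named from these lists all did, where 19.1% of all genes passed. The 9 were named for the smallest p of their lists in the same data, so their passing is no separate support. ENAH, an actin regulator, had 0.40 (0.13 corrected) and CHN1, a Rac GTPase-activating protein, 0.38 (0.22 corrected). Of 34 tested other adhesion genes 7 were higher (20.6%, against 13.1% of all genes) and 1 lower (2.94%, against 5.26%), including ALCAM at 0.53 (0.24 corrected), SLITRK6 at 0.48 (0.15 corrected) and TENM3 at 0.36 (0.25 corrected).

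Total counts were 20376722 to 21629573 in GC0643 overexpression libraries and 20489033 to 24069166 in vector control libraries. Of the epithelial markers EPCAM, CDH1, KRT18 and KRT19 stood under 1 CPM and KRT8 averaged 6.22 CPM in GC0643 overexpression and 5.83 CPM in vector control, all 6 gastric epithelium markers were under 1 CPM, with TFF2, GKN1 and PGC at 0, and the mesenchymal list summed to 3169 to 3444 CPM in GC0643 overexpression and 3116 to 3340 CPM in vector control. Most of that sum was VIM, and CDH2 averaged only 0.27 CPM in GC0643 overexpression and 0.23 CPM in vector control. FN1 averaged 52.2 CPM in GC0643 overexpression and 36.9 CPM in vector control, and ZEB1 31.3 CPM in GC0643 overexpression and 23.7 CPM in vector control. The neuron list of 8 markers had ELAVL4 and STMN2 at 0 in every library and 5 under 1 CPM. It summed to 12.4 to 18.0 CPM in GC0643 overexpression and 11.6 to 13.0 CPM in vector control, mostly SYT1. SYT1 averaged 11.7 CPM in GC0643 overexpression and 8.88 CPM in vector control. The means of RBFOX3, SYP, SNAP25, ELAVL3 and MAP2 were lower in GC0643 overexpression, for RBFOX3 1.30 CPM against 1.86 CPM in vector control. The part of these markers in the member values was not tested.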

How the data were processed

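RNA of HGC-27 cells was measured in 6 libraries, 3 of each group. The authors made the deposited counts per Ensembl gene by trimming (Trimmomatic 0.32), aligning to GRCh38 (HISAT2 2.1.0) and counting (featureCounts 2.0.0), per the submitters' processing notes. The counting options in the study's methods are given for its tumour RNA-seq and were not assumed for these libraries, and strand is not stated. All values were whole numbers. Of 58825 genes, 58472 were matched to GENCODE version 44.

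The counts were tested with edgeR 4.0.16 in R 4.3.3. DESeq2 1.42.0 and limma 3.58.1 served as alternatives, and figures were drawn by matplotlib 3.10.9 under Python 3.11.15. After filterByExpr and TMM scaling, edgeR's quasi-likelihood test compared the groups over 19528 genes, with Benjamini-Hochberg adjustment over all of them. CPM, counts scaled to a common library size, used the TMM-scaled totals, with a prior count of 1 on the log scale. The fold change threshold was 1.5. Each SE was the absolute log2 fold change divided by the square root of the quasi-likelihood F statistic. The biological coefficient of variation was 14.8%. GC content was that of the canonical transcript, and its correction used a loess span of 0.3 per library. Scripts were tested on simulated data.

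Members named with a value in each library were those past the fold change and unadjusted p, the 10 with the smallest p on each side, and the highest per length in each of 10 families. From each of 3 pathway lists the 3 genes with the smallest p were named. Members and lists were chosen with earlier results of these data known. Alternatives were another test, scaling or filter, corrections for GC and length, a replicate block, and leaving out each library.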

Additional observations from a re-analysis of the deposited data

How the results depend on the processing

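Depth was similar in all libraries, and 19 alternatives were run for each named gene except CNTN2, which had 18. Of their values, 745 kept the sign and the side of the adjusted p, 32 kept the sign and passed it, and 20 had the opposite sign. The cause of these changes was not tested. With edgeR's likelihood ratio test 2 members passed the adjusted p on the higher side (0.0666% of all genes). With no filter on low counts 2 did (0.444%), and 1 passed the fold change of 1.5 on the lower side (1.13%). Same-numbered libraries of the groups had correlated deviations of −0.21, −0.03 and −0.31. For differently numbered libraries of the groups the values were −0.17 to 0.31. With 3 libraries a group these values cannot show whether the number marks a pairing, and the labels do not say. The replicate block gave 7 members higher (9.96% of all genes) and 0 lower (1.61%) by the unadjusted p. VAV3 was then past the adjusted p of edgeR (0.034).

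With the GC correction the counts were 5 higher (2.87% of all genes) and 1 lower (3.24%), and the members' median was 0.054. Past the fold change there were 0 (0.63% of all genes higher and 0.871% lower). In the pathway lists the GC correction left 1 higher and 0 lower of 20 tested receptors and ligands outside the members. It left 3 higher and 1 lower of 48 effectors, and 2 higher and 1 lower of 34 other adhesion genes. The shares of all genes were again 2.87% higher and 3.24% lower. PLXNA1 then had a log2 fold change of 0.0076, PLXND1 0.034, EPHA6 −0.11, EPHA7 −0.017, EFNA4 0.071, EPHB4 0.052 and SEMA6B 0.026. The replicate block with the GC correction gave 3 higher (2.02% of all genes) and 1 lower (2%), and a median of 0.062. Past the fold change there were 0 (0.558% of all genes higher and 0.707% lower). PLXNA1 stood at 0.0067, PLXND1 at 0.034, EPHA6 at −0.094, EPHA7 at −0.0088, EFNA4 at 0.073, EPHB4 at 0.051 and SEMA6B at 0.021. With a correction for length there were 4 higher (8.05% of all genes) and 9 lower members (8.64%) by the unadjusted p. Past the fold change there was 1 in each direction (1.18% of all genes higher and 1.17% lower).

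Leaving out each library in turn gave 2 to 15 higher and 0 to 10 lower members by the unadjusted p. Of all genes, 4.14% to 22.8% were then higher and 1.84% to 14.2% lower. Past the adjusted p there were 0 to 8 higher and 0 to 3 lower members (0% to 14.7% and 0% to 4.36% of all genes). Past the fold change there were 1 to 7 higher and 0 to 1 lower (1.13% to 8.71% and 0.625% to 2%). The members' median lay between −0.09 and 0.02. For NRP1 the lowest value, −0.22, came without vector control replicate 1, and its highest, 0.022, when vector control replicate 3 was dropped. The GC correction without vector control replicate 2, chosen after the data were seen, gave 4 higher members (6.82% of all genes) and a median of 0.060. Past the fold change there were 0 (1.4% of all genes higher and 1.79% lower). PLXNA1 stood at 0.035, PLXND1 at 0.033, EPHA6 at −0.24, EFNA4 at 0.13 and EPHB4 at 0.040.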
